A study of Mus musculus with 6 samples.

Results

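The 4 Notch receptor genes of the mouse, *Notch1*, *Notch2*, *Notch3* and *Notch4*, and the 5 genes of their canonical ligands, *Jag1*, *Jag2*, *Dll1*, *Dll3* and *Dll4*, were measured in mammary luminal progenitors with and without *Robo1*. They were chosen by name, and all 9 were found among the 18537 known-gene clusters of the RNA-seq table. Luminal progenitors were sorted by flow cytometry as Lin−CD24loCD29+CD61+ cells, with lineage depletion of blood and endothelial cells, from mammary glands of adult nulliparous *Robo1+/+* and *Robo1−/−* littermates born to *Robo1+/−* parents. The mutants carried the *Robo1tm1Matl* allele in every cell of the body, so that loss was not limited to the sorted cells, and the labels name no other allele or treatment. There were 3 libraries of poly(A)+ RNA per genotype, gh03, gh09 and gh15 for *Robo1+/+* (herein WT) and gh06, gh12 and gh18 for *Robo1−/−* (KO), and each held the pooled RNA of 2 animals. Basal cells and mature luminal cells were not analysed here.

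Notch receptors are single-pass membrane proteins that are activated by Jagged and Delta-like ligands on neighbouring cells. Ligand binding exposes the receptor to ADAM proteases and γ-secretase, and the freed intracellular domain enters the nucleus, where it joins RBPJ and Mastermind proteins to switch on genes of the Hes and Hey families. In the mammary gland Notch signaling favours the luminal over the basal fate and holds back alveolar differentiation. ROBO1 is a receptor of the secreted SLIT proteins. The comparison addressed which receptors and ligands luminal progenitors carry, in what proportions, and whether their RNA levels changed with loss of *Robo1*.

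The deposited values were read counts divided by a size factor per library, here called normalized values. The WT libraries held 10494297 (gh03), 17433868 (gh09) and 14298652 (gh15) recovered reads, and the KO libraries 12183461 (gh06), 15185303 (gh12) and 9727191 (gh18). Values are given below in this order of libraries. *Robo1* (kgCluster9753) had normalized values of 289, 574 and 541 in the WT and 130, 214 and 177 in the KO libraries. Each KO library was thus lower than each WT library, as the labels require, with a mean at 37.1% of that in WT (log2 fold change −1.39, standard error 0.36, limma, adjusted p = 0.858; −1.44 after the GC correction described below and −1.42 without gh18).

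Replicate gh18 stood apart from the other 5 libraries in how its values followed the GC content of transcripts. Its log2 deviation from the mean of the others fell with GC content (Spearman's rho = −0.81 across 12401 tested genes, which are not independent replicates). For the other libraries rho lay between 0.17 and 0.61. Their deviations were taken from means that include gh18, so the trend of gh18 enters these values with opposite sign. At a transcript GC content of 40% the median deviation of gh18 was 0.94 on the log2 scale, and at 60% it was −2.31. Most Notch receptor and ligand transcripts are rich in G and C, from 48.8% for *Jag1* to 61.3% for *Jag2*, so log2 fold changes of the members are given with and without gh18. They are also given after a GC correction, in which the smoothed dependence of each library's deviation on GC content was removed. That deviation was taken from the mean of all 6 libraries, gh18 included. Corrected levels, shares and ratios between genes therefore carry part of the GC trend of gh18, in WT libraries too. They serve to compare libraries, not to give truer levels of genes.

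The sorted cells carried the markers of luminal progenitors. All 8 listed markers were tested, *Krt18*, a simple-epithelial keratin, was the most abundant of them per kilobase, and none was at 0. *Kit*, a receptor tyrosine kinase of luminal progenitors, had values from 4209 to 5644 in the 6 libraries. The sum of the 8 markers was 96377, 107917 and 105301 in WT libraries and 112928, 115538 and 52296 in KO libraries. It was lowest in gh18, in which *Krt18* had 11522 against at least 28162 in the other libraries. *Krt8*, *Epcam* and *Cd14* were also lowest in gh18, whereas *Kit*, *Elf5*, *Itgb3* and *Aldh1a3* lay there within the range of the other libraries.

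Among the receptors, *Notch3*, *Notch1* and *Notch2* were abundant and *Notch4* was near the limit of detection. *Notch3* (kgCluster10678; chromosome 17, 32257765 to 32303825, minus strand, NCBI build 37) had normalized values of 3517 (gh03), 3757 (gh09) and 3804 (gh15) in WT against 3556 (gh06), 3191 (gh12) and 575 (gh18) in KO. Replicate gh18 was far below the other 5 libraries, which lay close together, and gh06 fell within the WT range, so the genotypes overlapped. *Notch1* (kgCluster13326; chromosome 2, 26313423 to 26372183, minus strand), a receptor of luminal commitment in this gland, had 2322, 2170.2 and 2349.9 in WT and 2959, 1968 and 576 in KO libraries. Both the highest and the lowest value came from KO libraries, gh06 and gh18, and these enclosed the WT range.

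*Notch2* (kgCluster16377; chromosome 3, 97817461 to 97954290, plus strand), which is closely related to *Notch1*, had 1111, 1553 and 1196 in WT and 1429, 1144 and 846 in KO libraries. The lowest value was again that of gh18, and the other KO values lay within the WT range. *Notch4* (kgCluster10761; chromosome 17, 34701213 to 34725448, plus strand), best known from endothelium, had 6.36, 7.05 and 10.32 in WT and 11.51, 8.24 and 2.92 in KO libraries. These values stood for 5, 9, 11, 10, 9 and 2 reads, so gh18 was under the detection floor of 3 reads and the gene did not pass the filter on low reads. No fold between the genotypes is given for *Notch4*.

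Levels of different genes were compared per kilobase of the longest coding transcript. In WT libraries *Notch3* had 459 ± 19.2 normalized units per kilobase (SD, n = 3), *Notch1* 240 ± 10.2, *Notch2* 122 ± 22.3 and *Notch4* 1.20 ± 0.321. Each neighbouring pair in this order was separated in all 3 WT libraries by more than the spread between them. With the union of exons as length this did not hold for *Notch1* and *Notch2*, which made up 19.8% and 19.2% of the receptor pool in gh09. The mean over the 6 libraries includes gh18 and was 381 for *Notch3*. This mean placed *Notch3* above 82.6%, *Notch1* above 70.9% and *Notch2* above 56.4% of genes with a read and a known length, and *Notch4* above 14.3%. No rank is given for WT libraries alone. In gh06 and gh12 the order was the same, with 442 and 397 for *Notch3*, 312 and 207 for *Notch1* and 136 and 109 for *Notch2*. Replicate gh18 went against it, with 71.5 for *Notch3*, 60.7 for *Notch1* and 80.6 for *Notch2*, but had the common order after the GC correction, with 256, 153 and 117 in place of these levels.

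**Figure D1:**
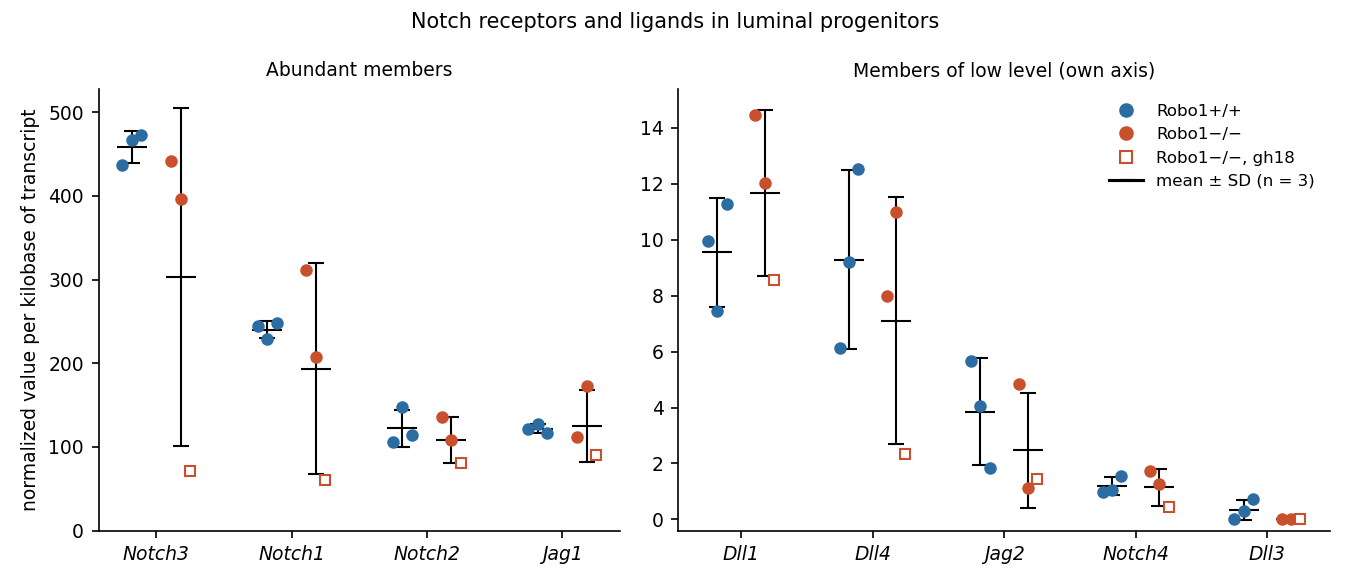
Normalized value per kilobase of transcript for the 9 genes, in 2 panels with separate linear axes. Each circle is a library of *Robo1+/+* (blue) or *Robo1−/−* (red) luminal progenitors, the open square is *Robo1−/−* replicate gh18, and bars give the mean ± SD of 3 libraries; the levels of *Notch3* lie between 397 and 473 in the 5 libraries other than gh18, in which it is 71.5.

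As a share of the receptor pool, the summed level per kilobase of the 4 receptors, *Notch3* made up 55.4%, 55.3% and 56.6% in WT against 49.6% (gh06), 55.5% (gh12) and 33.5% (gh18) in KO. The WT libraries lay close together, and gh12 fell within their range, whereas gh06 and, farther off, gh18 lay below it. *Notch1* made up 31.0%, 27.1% and 29.6% in WT and 35.0%, 29.0% and 28.5% in KO libraries. Its highest share was in gh06, and the genotypes overlapped.

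The share of *Notch2* was 13.4%, 17.5% and 13.6% in WT and 15.3%, 15.2% and 37.8% in KO libraries. Only gh18 lay outside the WT range. Mean shares in WT were 55.8% ± 0.696 for *Notch3*, 29.2% ± 2.0 for *Notch1* and 14.8% ± 2.30 for *Notch2* (SD, n = 3), and in KO 46.2% ± 11.4, 30.8% ± 3.60 and 22.8% ± 13.0. Without gh18 the KO means were 52.6%, 32.0% and 15.3%. With the GC correction and all 3 libraries the KO means were 49.9%, 31.4% and 18.8%, beside corrected WT means of 52.6%, 30.1% and 17.3%. *Notch4* made up at most 0.208% of the pool in any library.

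**Figure D2:**
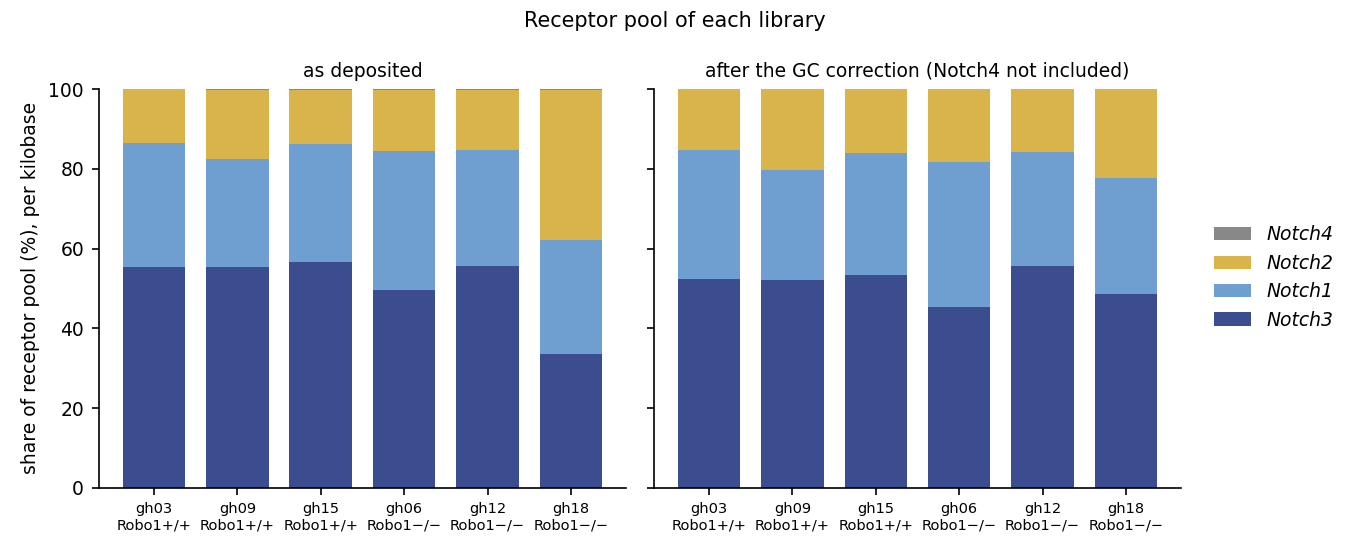
Share of each receptor in the summed receptor level per kilobase, in percent, for each library, as deposited (left) and after the GC correction (right, where *Notch4* is not included). The *Notch2* share of *Robo1−/−* replicate gh18 is 37.8% as deposited and 22.2% after the correction, against 15.4% to 20.4% in the *Robo1+/+* libraries after the correction.

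The level of *Notch3* over that of *Notch1*, per kilobase, was 1.79, 2.04 and 1.91 in WT libraries and 1.42 (gh06), 1.91 (gh12) and 1.18 (gh18) in KO. The lowest ratios were those of gh18 and gh06, and gh12 lay within the WT range. After the GC correction the ratio of gh18 was 1.68, within the corrected WT range of 1.62 to 1.89, while that of gh06 was 1.25, still below it, and that of gh12 was 1.94, above it.

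Among the ligands, *Jag1* was the only abundant gene. *Jag1* (kgCluster14780; chromosome 2, 136907192 to 136942380, minus strand), a Jagged ligand, had normalized values of 679 (gh03), 717 (gh09) and 658 (gh15) in WT against 627 (gh06), 969 (gh12) and 509 (gh18) in KO. The WT libraries lay close together, gh12 was the highest of all and gh18 the lowest, and the KO values lay on both sides of the WT range. *Jag2* (kgCluster5714; chromosome 12, 114146801 to 114167706, minus strand), the other Jagged ligand, had 22.9, 16.5 and 7.5 in WT and 19.6, 4.58 and 5.84 in KO libraries. These stood for 4 to 21 reads, and the genotypes overlapped, with gh12 lowest.

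The Delta-like ligands were low or at the detection floor. *Dll1* (kgCluster10069; chromosome 17, 15504318 to 15513836, minus strand) had 35.6, 26.6 and 40.3 in WT and 51.8, 43.0 and 30.6 in KO libraries. Replicates gh06 and gh12 were above all WT values and gh18 was within their range. *Dll4* (kgCluster14535; chromosome 2, 119151520 to 119161698, plus strand), a ligand best known from sprouting vessels, had 22.9, 34.5 and 46.9 in WT and 29.9, 41.2 and 8.75 in KO libraries. The WT libraries alone spanned a range that held gh06 and gh12, and gh18, with 6 reads, was below it. *Dll3* (kgCluster22433; chromosome 7, 29076673 to 29087257, minus strand), a divergent ligand that inhibits Notch within its own cell, had 0, 1 and 2 reads in WT and 0 reads in each KO library, and no fold is given because every library was under the floor.

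Per kilobase, *Jag1* had 122 ± 5.37 in WT libraries (SD, n = 3), *Dll1* 9.55 ± 1.94, *Dll4* 9.28 ± 3.20 and *Jag2* 3.85 ± 1.91. *Dll1* and *Dll4* did not differ beyond their spread, nor did *Jag1* and *Notch2*, and the level of *Notch2* over that of *Jag1* ran from 0.631 to 1.22 over the 6 libraries. *Jag1* made up 84.8%, 85.9% and 81.6% of the ligand pool in WT and 80.4%, 87.7% and 88.0% in KO libraries. Its share thus stayed within 80.4% and 88.0% in both genotypes, gh18 included, with means of 84.1% ± 2.2 and 85.4% ± 4.33 (SD, n = 3). After the GC correction gh18 was the lowest, with 74.7%, and the other 5 libraries lay between 83.9% and 88.8%.

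In all 6 libraries luminal progenitors carried more receptor than ligand RNA per kilobase. The receptor pool was 789, 845 and 836 units per kilobase in WT and 892, 714 and 213 in KO libraries, and the ligand pool was 143, 149 and 144 against 139, 197 and 103. The receptor pool over the ligand pool was 5.52, 5.68 and 5.82 in WT libraries and 6.41 (gh06), 3.63 (gh12) and 2.07 (gh18) in KO. The WT libraries again lay close together, and the KO libraries spread on both sides of them. After the GC correction the ratio was 4.55, 4.38 and 4.56 in WT libraries. Replicates gh18, with 4.87, and gh06, with 4.89, lay above these values, while gh12, which had the highest *Jag1* level, had 3.39. In bulk RNA, fewer cells of a type and less RNA per cell cannot be told apart, and ligand RNA of the neighbouring basal cells was not analysed here.

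The GC content of the members went with the low receptor values of gh18. The log2 deviation of gh18 from the other 5 libraries was −2.63 for *Notch3* (GC content 59.6%), where the median of 615 genes within 1 percentage point of that GC content was −2.26. For *Notch1* (57.1%) it was −2.01 beside a median of −1.61, and for *Notch2* (53.6%) −0.59 beside −0.62. These 3 receptors lay between the 34.2 and 52.1 percentiles of genes of like GC content in gh18. For *Jag1*, which has the lowest GC content of the members, the deviation was −0.50 where the median was 0.21, at the 11.5 percentile. The remaining ligands lay on both sides of the median. The *Jag2* deviation was −0.95 beside a median of −2.48, and rested on 4 reads in gh18, that of *Dll1* was −0.32 beside −0.93, and that of *Dll4* −1.85 beside −1.25.

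**Figure D3:**
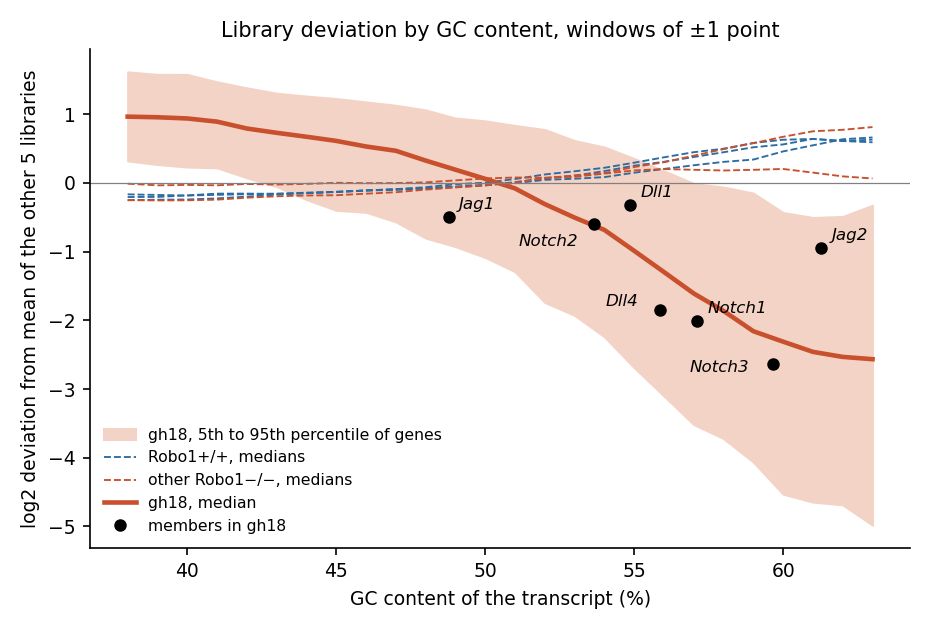
Log2 deviation of each library from the mean of the other 5 against transcript GC content in percent. Lines are medians over genes within 1 percentage point (solid, *Robo1−/−* replicate gh18; dashed, the other libraries), the band holds the 5th to 95th percentile of genes in gh18, and points are the 7 tested members in gh18; *Notch1*, *Notch2* and *Notch3* lie near the median of genes of their GC content, and *Jag1* lies below it.

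The most GC-rich coding stretch of 75 bases, the length of a trimmed read, is shown for the 4 abundant genes. G and C are in capitals, each stretch lies within a single coding exon, sequences are read from NCBI build 37 and run 5′ to 3′ on the strand of the gene. The *Notch3* stretch is in exon 1 (chr17:32303662-32303736, minus strand), the *Notch1* stretch in exon 13 (chr2:26332553-26332627, minus strand), the *Notch2* stretch in exon 34 (chr3:97950463-97950537, plus strand) and the *Jag1* stretch in exon 1 (chr2:136941917-136941991, minus strand).
*Notch3*: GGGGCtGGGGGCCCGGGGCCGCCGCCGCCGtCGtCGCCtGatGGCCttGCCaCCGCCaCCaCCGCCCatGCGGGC
*Notch1*: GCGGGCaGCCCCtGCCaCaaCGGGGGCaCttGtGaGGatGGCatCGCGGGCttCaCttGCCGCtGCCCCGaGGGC
*Notch2*: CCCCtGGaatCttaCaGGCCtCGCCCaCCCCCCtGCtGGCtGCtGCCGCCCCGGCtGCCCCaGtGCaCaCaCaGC
*Jag1*: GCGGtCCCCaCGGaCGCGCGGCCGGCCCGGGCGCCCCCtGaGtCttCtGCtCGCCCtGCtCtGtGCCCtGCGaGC
The stretch held 62 G or C bases of 75 in *Notch3*, 54 in *Notch1*, 54 in *Notch2* and 59 in *Jag1*, so that *Jag1*, with the lowest GC content over its transcript, had a richer stretch than *Notch1* and *Notch2*. Over the whole transcript, 20.6% of the windows of this length were above 65% GC in *Notch3*, 11.4% in *Notch1*, 5.0% in *Notch2* and 4.9% in *Jag1*. In *Jag2*, *Dll1* and *Dll4* the share was 28.9%, 17.1% and 9.7%.

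Changes with loss of *Robo1* were tested with limma on log2(value + 1) over the 13692 genes that passed the filter, among them 7 of the 9 members, all but *Notch4* and *Dll3*. At an adjusted p under 0.05 limma called 0 genes (0%), edgeR on the recovered reads 0 and DESeq2 1, RP23-282C23.3, which is not a member. At an unadjusted p under 0.05 limma called 231 genes (1.69%), of which 126 were lower (0.92%) and 105 higher (0.767%) in KO, and 0 of the 7 tested members. With the GC correction 1.56% of tested genes and without gh18 4.23% passed this threshold, again with 0 of the 7 members. The genotypes did not overlap in 9.41% of tested genes and in 0 of the 7. With 7 genes, a share of 0 is near these backgrounds.

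The receptor estimates were below 0 with all libraries and closer to 0 without gh18. For *Notch3* the estimate was −0.98 on the log2 scale (standard error 0.67, limma, adjusted p = 0.858), and it became −0.16 after the GC correction and −0.13 without gh18. Its normalized values were 3693 ± 154 in WT and 2441 ± 1626 in KO libraries (SD, n = 3), and the two-sided exact permutation test gave p = 0.20, where 3 libraries against 3 allow no p under 0.10. *Notch1* had −0.61 (standard error 0.56, limma, adjusted p = 0.858), −0.03 with the GC correction and 0.08 without gh18. For *Notch2* the log2 fold change was −0.19 (standard error 0.27, limma, adjusted p = 0.861), with 0.04 after the GC correction and 0.01 without gh18. The spread between KO replicates, gh18 included, was larger than the difference in means for each of these receptors. With all libraries the 95% intervals of the log2 fold change ran from −2.55 to 0.59 for *Notch3*, from −1.94 to 0.73 for *Notch1* and from −0.82 to 0.44 for *Notch2*, and changes within these bounds are not excluded. Without gh18 they ran from −0.45 to 0.19, from −0.39 to 0.55 and from −0.46 to 0.48.

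*Jag1*, the ligand gene at issue in the study's basal cells, had an estimate of −0.02 on the log2 scale in luminal progenitors (standard error 0.28, limma, adjusted p = 0.986), with normalized values of 685 ± 30.1 in WT and 702 ± 239 in KO libraries (SD, n = 3). The log2 fold change was −0.10 after the GC correction, 0.19 without gh18 and 0.02 under upper-quartile scaling, so no direction is given. The 95% interval ran from −0.68 to 0.65 with all libraries and from −0.31 to 0.69 without gh18. *Dll1* had the only estimate above 0 among the members with all libraries, 0.27 (standard error 0.38, limma, adjusted p = 0.861), which became 0.62 after the GC correction and 0.47 without gh18. The *Dll1* estimate fell to 0.10 without gh06 and to 0.11 without gh09. Its two-sided exact permutation p was 0.40, and 1 of the 3 KO libraries, gh18, lay within the WT range. *Dll4* (−0.56, standard error 0.63) and *Jag2* (−0.73, standard error 0.67) rested on 6 to 50 and 4 to 21 reads per library. *Dll4* moved to −0.11 after the GC correction and 0.07 without gh18, and *Jag2* to 0.23 and −0.51, with −1.30 without gh06, so no direction is given for either.

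Over the 7 tested members the median log2 fold change was −0.56, beside 0.00 for all tested genes, and 6 were below 0 and 1 above. With the GC correction the median was −0.03 and 4 were below 0 and 3 above, and without gh18 it was 0.07 with 2 below and 5 above. In gh18 5 of the 7 had their lowest value of all libraries, as did 38.3% of tested genes.

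**Figure D4:**
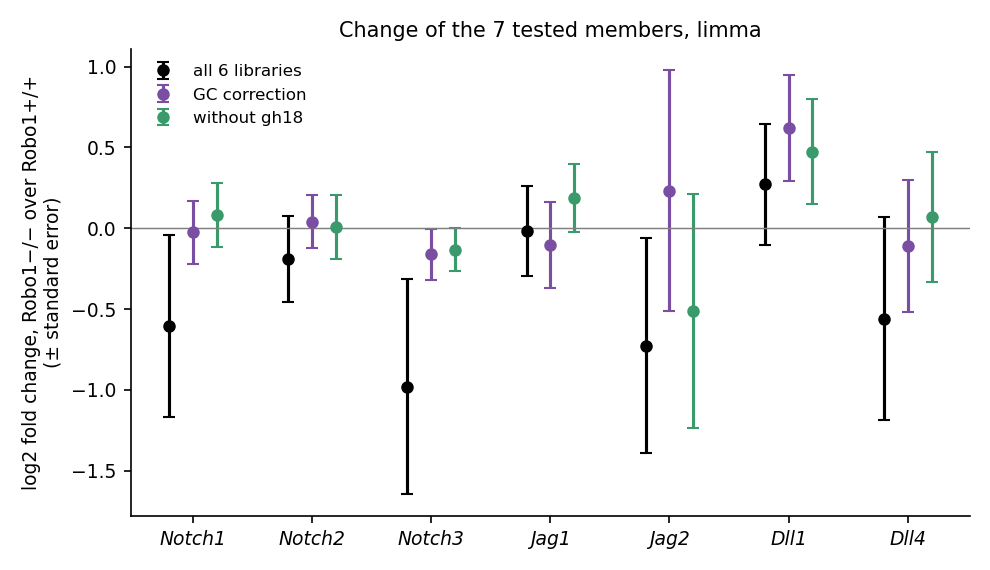
Log2 fold change of the 7 tested members, *Robo1−/−* over *Robo1+/+*, on the log2(value + 1) scale with limma's standard error as bars, for all 6 libraries (black), with the GC correction (purple) and without *Robo1−/−* replicate gh18 (green). The *Notch3* estimate moves from −0.98 to −0.16 and −0.13.

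The genes whose values over the 6 libraries were most like those of *Notch3*, the most abundant receptor, were *Arhgdia*, *Slc25a28* and *Mlf2*, with root mean square differences of 0.03, 0.05 and 0.06 in centred log2(value + 1) among 10260 candidates. Each shared its low value in gh18, which follows from the choice by likeness, and their transcripts held 60.7%, 61.5% and 58.5% GC. For *Jag1* the most similar were *Amigo1* (0.05), *Gtf2h5* (0.06) and *Glb1* (0.07). Each of these was highest in gh12 and lowest in gh18, as *Jag1* was, which again follows from the choice. Transcripts of *Amigo1* and *Gtf2h5* held 52.4% and 42.5% GC, and no GC content was available for *Glb1*. A likeness over 6 libraries describes these libraries and carries no test.

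*Notch3* is also a known gene of pericytes, *Notch4* and *Dll4* of endothelium, and *Jag1* of basal cells, so markers of the other cells a sorted gland sample could hold were read. Of 7 pericyte markers 2 were tested, and the sum of all 7 was 370, 427 and 544 in WT and 300, 402 and 394 in KO libraries, most of it *Mcam*. The defining pericyte markers *Pdgfrb*, *Kcnj8* and *Des* were at or under a value of 2.35 in every library and *Cspg4* at or under 8.91, whereas *Rgs5*, which was tested, had 78.9, 28.2 and 64.7 in WT and 34.5, 20.1 and 136 in KO libraries and was highest in gh18. Of 9 endothelial markers 8 were in the table and 3 were tested, with *Eng* the most abundant per kilobase and sums over the 8 of 333, 900 and 923 against 677, 1378 and 93.4. *Cdh5* was at 0 in all WT libraries and at most 1.46 in KO libraries, and *Kdr* was at most 3.45. *Pecam1* and *Flt1*, which were tested, had values in the range of those of *Dll4* and above it, from 23.4 to 89.8 and from 10.2 to 97.6. *Flt1* and *Dll4* were both highest in gh15, then in gh12 and gh09. The other tested endothelial markers did not share this order. *Eng* was highest in gh12, with 1219 against 772 in gh15. *Pecam1* was also highest in gh12, with 89.8, and its 38.5 in gh15 was above that of gh18 alone.

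The sum of the 9 basal and myoepithelial markers, all tested, was 2257, 807 and 1343 in WT and 1680, 1004 and 1147 in KO libraries, with *Tagln* the most abundant per kilobase and none at 0. It was highest in gh03. The 6 markers of hormone-sensing luminal cells, led by *Prlr*, summed to 30352, 43754 and 32828 against 54617, 43788 and 47100, most of it *Prlr*, and the highest WT sum (gh09) and the lowest KO sum (gh12) were nearly equal. All 6 were tested, with a median log2 fold change of 0.45 (0.33 after the GC correction, 0.44 without gh18), and 1 passed an unadjusted p of 0.05, beside 1.69% of all tested genes (2 of the 6 without gh18, both higher in KO, beside 4.23%). With all libraries this was *Pgr*, the progesterone receptor, higher in KO without overlap, with 1721, 3003 and 3394 against 5481, 4124 and 3752 (log2 fold change 0.76; 1.23 after the GC correction and 0.87 without gh18). The other 5 overlapped, and *Cited1* was the only one with an estimate below 0, −1.01 (0.03 after the GC correction and 0.20 without gh18), with 286 in gh18 and 2702 to 3954 in the other libraries. Leukocyte markers (2 of 7 tested, led by *Cd68*) summed to 96.3 to 161 per library, and *Ptprc* was at most 1.46. Fibroblast markers (5 of 6 tested, led by *Dcn*) summed to 307 to 1039, erythroid markers (1 of 4 tested, led by *Alas2*) to 19.7 to 63.5, and *Fabp4*, the single adipocyte marker of 4 in the table, was at most 3.92. No listed marker that was in the table was at 0 in every library. The part of these cells in the *Notch3*, *Jag1*, *Dll1* and *Dll4* values was not tested.

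The rest of the pathway was read from 7 lists of 58 genes, from receptor glycosylation to target genes, of which 49 were tested. At an unadjusted p under 0.05, 1 was lower and 2 were higher in KO, which is 6.12% of those tested beside 1.69% of all tested genes, and all 3 were target genes. The median log2 fold change of the 49 was 0.02. Without gh18 4 passed (4.23% of all tested genes), with the GC correction 2 (1.56%), and without gh06 10, where 879 of 13692 genes did. The genotypes did not overlap in 4 of the 49 (8.16%), near the 9.41% of all tested genes. These were *Hey2* and *Poglut1*, higher, and *Heyl* and *Lfng*, lower in KO.

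Of genes that modify the receptor, 4 of 5 in fringes and O-glycosylation were tested, and 0 passed with all libraries, while without gh18 1 passed, lower in KO. *Lfng*, a fringe that alters which ligands a Notch receptor answers to and was named after its values were seen, had 136, 158 and 103 in WT and 90.9, 75.1 and 19.0 in KO libraries. Its genotypes did not overlap with gh18 or without it, and its log2 fold change was −1.34 with all libraries, −0.59 with the GC correction and −0.65 without gh18. None of the 9 tested genes of receptor cleavage, the 6 of ligand ubiquitination and endocytosis, the 9 of receptor turnover and the 14 of the nuclear complex passed, with median log2 fold changes of −0.06, −0.15, 0.18 and 0.04. *Egfl7* was the single tested gene of 6 other Notch-binding proteins and had 0 reads in gh18 alone.

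Among 6 tested target genes of 8 listed, *Hey2* and *Hey1* were higher and *Heyl* lower in KO at an unadjusted p under 0.05. *Hey2*, a transcriptional repressor of the Hairy family, had 17.8, 28.2 and 24.4 in WT and 56.4, 47.6 and 54.0 in KO libraries. All KO values, gh18 included, were above all WT values (log2 fold change 1.15, standard error 0.35, limma, adjusted p = 0.858), and the log2 fold change was 0.96 after the GC correction and 1.13 without gh18. *Heyl*, of the same family, had 363, 212 and 320 against 99.0, 48.5 and 175, with every KO value lower (−1.61, standard error 0.50, limma, adjusted p = 0.858). The log2 fold change of *Heyl* was −1.23 after the GC correction and −1.45 without gh03, which each ended the unadjusted call, and −2.05 without gh18. *Hey1*, of this family too, had 743, 621 and 395 in WT and 1587, 1666 and 708 in KO, so that gh18 lay within the WT range. Its log2 fold change was 1.12 (limma, adjusted p = 0.858), 1.11 after the GC correction and 1.52 without gh18, and kept its direction but not its unadjusted call without gh09, gh15, gh06 or gh12 (log2 fold changes of 1.18, 0.86, 0.94 and 0.90). The other tested targets, *Hes1* (log2 fold change 0.21), *Nrarp* (−0.17) and *Dtx1* (−0.62), did not pass, and their genotypes overlapped. *Nrarp* and *Dtx1* turned to 0.16 and 0.43 after the GC correction. *Hey1*, *Hey2* and *Heyl* differed in opposite directions, and 0 of the 7 tested receptors and ligands passed the same threshold. The part of hormone-sensing cells in the *Hey1*, *Hey2* and *Heyl* values was not tested.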

How the data were processed

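The authors deposited a normalized signal per known-gene cluster: reads trimmed to 75 bases, freed of repeats with Bowtie 2, mapped to NCBI build 37 (mm9) with TopHat, counted, and divided by a DESeq size factor per library. The counting tool, its use of strand and its treatment of multiply mapped reads are not given in the sources used here, so the antisense genes that overlap exons of *Notch1*, *Notch3*, *Dll1* and *Dll4* cannot be told apart from them. No 75-base stretch of a member occurs in another coding gene. Whole reads were recovered from the value of 1 read per library, and 100% of values were whole within 0.1 read. The floor was 3 reads, which covers counting error only. Raw counts had been planned for edgeR's quasi-likelihood test; as the values were normalized, limma (version 3.58.1, R 4.3.3) with empirical Bayes trend and Benjamini-Hochberg adjustment was run on log2(value + 1), which understates changes of low genes, for 13692 genes kept by edgeR's filterByExpr (version 4.0.16). Alternatives were DESeq2 (version 1.42.0), edgeR and limma-voom on recovered reads, other scalings, filters and pseudocounts, the GC correction and each library left out. Transcript lengths and GC content came from GENCODE release M1, and 12401 tested genes (90.6%) had both. The GC correction used lowess with span 0.3 and was tested on simulated data. There 1 library had a straight GC trend that was equal for all genes of the same GC content. In gh18 such genes scattered, from −4.53 to −0.43 between the 5th and 95th percentile at 60% GC. The simulation therefore cannot tell how well the correction works in gh18. Clusters sharing a symbol were represented by that of highest mean. Genotypes came from the labels. The members and lists were chosen with earlier results of these data known. Genes named beside the members were *Robo1*, at most 3 per pathway list with an unadjusted p under 0.05 and a log2 fold change beyond 1 in either direction, the most abundant marker of each list, and the 3 genes of mean value at least 100 most like *Notch3* and *Jag1*; other genes were named after their values were seen.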

Additional observations from a re-analysis of the deposited data

How the results depend on the processing

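No paired analysis was possible because the labels do not say which libraries are littermates. Genes past an adjusted p of 0.05 numbered 0 with limma in each setting run and with edgeR, and 1 with DESeq2, while those past an unadjusted p of 0.05 numbered 231 with limma, 221 with edgeR, 335 with DESeq2, 1641 with library weights and 879 without gh06. The members past an unadjusted p of 0.05 numbered 0 under every alternative, and the *Robo1* log2 fold change kept its direction. With the GC correction the log2 fold change turned for *Notch2* (0.040) and *Jag2* (0.23). With that correction and gh18 left out together, chosen after seeing the data, it turned for *Notch1* (0.13), *Notch2* (0.017), *Jag1* (0.16) and *Dll4* (0.10). *Jag1* also turned with DESeq2 (0.036), edgeR (0.029), library weights (0.34) and upper-quartile scaling (0.019). With a library left out in turn, log2 fold changes ran from −1.10 to 0.082 for *Notch1*, −0.37 to 0.0067 for *Notch2*, −0.28 to 0.19 for *Jag1*, −1.30 to −0.36 for *Jag2* and −0.99 to 0.072 for *Dll4*, and pathway genes past an unadjusted p of 0.05 from 2 to 10, the latter without gh06. *Notch3* and *Dll1* kept their direction under all 18 alternatives, from −1.45 to −0.04 and from 0.10 to 0.62. The *Heyl* call was also lost without gh03 (−1.45). In WT, the GC correction moved the level per kilobase of *Notch1* to 195 and of *Notch3* to 340.4, and the pool shares of *Notch2* to 17.3%, *Notch3* to 52.6% and *Jag1* to 86.9%. It draws each library toward the mean of all 6 libraries, gh18 included, so these values carry part of the GC trend of gh18. With the union of exons as length the WT level of *Notch1* was 160.3 and its share 21.6%, that of *Notch3* 61.8%, and the KO share of *Notch1* 22.9%, and *Notch1* and *Notch2* were no longer separated in gh09. Apart from what each alternative leaves out or rescales, the cause was not tested. *Notch4* and *Dll3* did not pass the main filter on low reads and were tested only with all genes with a read and with DESeq2, where neither was past an unadjusted p of 0.05, *Jag2* rests on 4 to 21 reads per library, and 3 libraries per genotype allow no exact p under 0.10.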
